A study of Homo sapiens with 8 samples.

Results

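The transcriptome of Karpas299 cells before any stimulation is described from the 2 arrays of untreated cells in a study of CD30 stimulation. Karpas299 is a long-established culture of human anaplastic large cell lymphoma (ALCL), a tumour derived from T cells, and is known for surface CD30 and for the fusion kinase NPM1-ALK. The members are the named genes for which the same probe had a detection p under 0.01 on both untreated arrays. They numbered 8089 of the 18850 named genes with a probe, or 42.9%, and a count for any group of genes is read against that share. They were ordered by the mean log2 intensity of their brightest detected probe, so that rank 1 is the brightest signal and rank 8089 the dimmest. Another 661 genes passed on 1 array, of which 612 passed on replicate 1 alone and 48 on replicate 2 alone. On neither array passed 10100 genes.

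RNA was hybridised to 8 Illumina bead arrays, with biological duplicates of untreated cells, cells given CD153-Fc (the CD30 ligand joined to an antibody Fc part), cells given the agonistic anti-CD30 antibody T104, and cells given both. All flasks were cultured for 16 h and then for another 8 h in the same medium containing fetal serum, with 10 µg/ml of each agent in the treated flasks. The agents were added in PBS, and the labels do not say whether untreated flasks received PBS alone. All flasks held the same cell line, so the measurements describe this line in culture and not a tumour or a normal T cell. The arrays measured RNA of whole cell pellets, in which fewer cells with a transcript and less transcript per cell cannot be told apart.

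Anaplastic large cell lymphoma with an ALK fusion arises when the kinase domain of ALK, a receptor that T cells do not normally make, comes under the control of the NPM1 promoter. The fusion kinase signals through STAT3 and other pathways, and the tumour cells are known for losing much of the T cell receptor apparatus while keeping cytotoxic granule proteins. CD30 (TNFRSF8), the high-affinity interleukin-2 receptor chain CD25 (IL2RA), granzyme B (GZMB) and ALK are the proteins by which pathologists commonly recognise it.

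Replicate 1 had 12967 of 48797 probes detected and replicate 2 had 11796, with mean intensities of 850.1 and 797.2 and lowest detected intensities of 199.3 and 226.6. Below, a pair of intensities gives replicate 1 first and replicate 2 second, as deposited before normalization, and a pair of levels gives the normalized log2 values in the same order. With 2 arrays there is no SD, so both values stand for the spread. A gene that did not pass is one whose probes were not well above background, which does not show that its transcript was absent, and a rank orders probe signals, which depend on each probe's affinity as well as on the amount of transcript. The number of probes also counted, since 38.8% of genes with 1 probe were members against 51.5% of genes with more. Of the 3155 members with more than 1 probe, 1218 had all their probes detected on both arrays.

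Most members were detected throughout the study. Of the 8089 members, 7248 were also detected on all 6 treated arrays and 42 on none, and 9924 of the 10100 genes that passed on neither untreated array were not detected on any treated array. In 5859 members, or 72.4%, no negative control probe was as bright on either untreated array. Members included 7929 protein-coding genes, 81 pseudogenes and 39 long noncoding RNAs. At the limit of detection lay TMEM186 with intensities of 200.2 and 227.0, USP45 with 200.9 and 234.6 and RGR with 207.6 and 229.2, each at a detection p of 0.00922 on its weaker array. Just outside lay CWC22 with 506.9 and 220.7, VAMP4 with 385.7 and 226.3 and ORAI1 with 393.1 and 222.9, all held back by replicate 2 at a detection p of 0.0105.

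The 30 brightest members included many ribosomal protein genes. EEF1A1, which brings aminoacyl-tRNA to the ribosome, had intensities of 66734.3 and 64772.5 and ranked first, followed by TMSB4X (thymosin beta 4, which binds free actin) with 63784.5 and 66464.1. Genes of ribosomal proteins made up 13 of the 30 brightest members and 34 of the 100 brightest, against 77 of all 8089. Several of them have processed pseudogenes of near-identical sequence, and signals of copy and parent cannot be told apart on an array. TUBA1B (tubulin) stood at 67408.7 and 59396.4, ACTG1 (gamma actin) at 66626.7 and 56819.8, and the glycolytic enzymes ENO1 at 59796.5 and 63748.4, LDHA at 61387.4 and 48542.3 and GAPDH at 56208.5 and 52545.5. These 5 are genes that most dividing cells use. Cell-type-related genes among the 30 brightest were HLA-DRA, the alpha chain of the MHC class II molecule HLA-DR, with 64251.1 and 59632.3, LAIR1, an inhibitory collagen receptor of leukocytes, with 57982.4 and 54337.8, and F2R, a thrombin receptor, with 53112.2 and 53042.1. The second probes of LAIR1 and F2R were far dimmer, at 296.5 and 336.9 and at 480.6 and 319.6. ITIH5, a secreted protease inhibitor heavy chain, was listed at 62573.2 and 47746.8 from 1 of its 5 probes, and its next brightest probe at 128.9 and 104.1 was not detected. The others of the 30 were TPT1, CLUAP1, SNRPD2, SLC7A5P2, FTL (ferritin light chain) and S100A10. From the dimmest member at 6.88 to the brightest at 16.0 the median level was 10.03, and the 10th and 90th percentiles lay 30.3-fold apart. The 100 brightest genes held 18.3% of the summed normalized intensity.

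**Figure D1:**
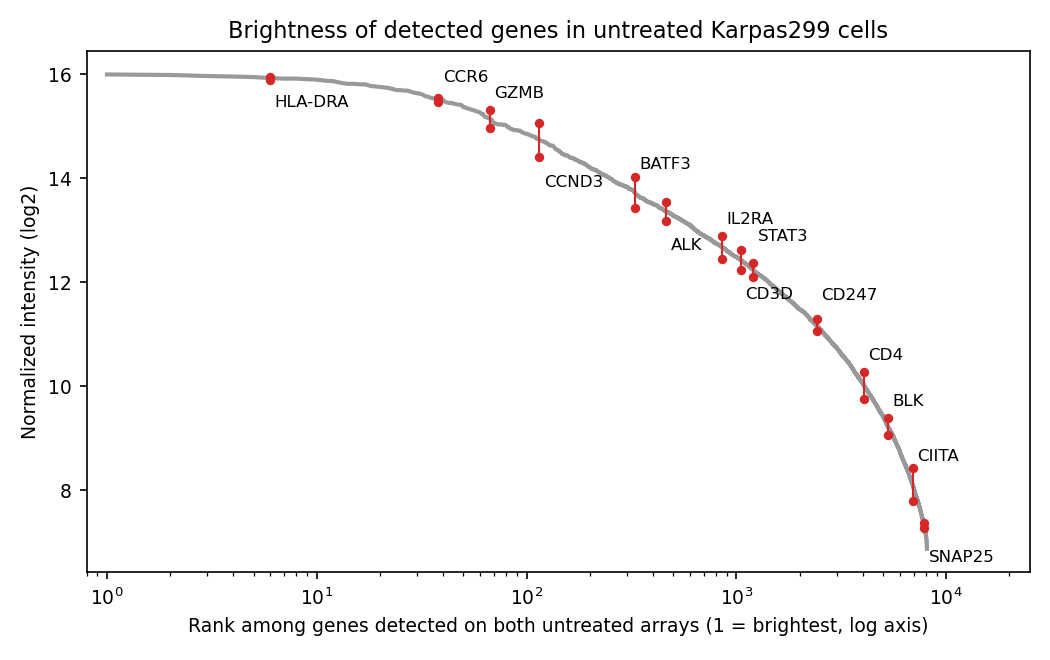
Each of the 8089 members is placed by its rank (log axis) and its mean normalized log2 intensity (grey line), and red points give the values of both untreated arrays for 14 genes. HLA-DRA lies on the flat top at rank 6, GZMB at rank 67, ALK at rank 463, CD4 at rank 4058 and CIITA at rank 6905.

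Of the 4 genes that mark the line, 3 were bright. GZMB, the serine protease of cytotoxic granules, had intensities of 33889.8 and 38638.6 (levels 14.97 and 15.31, rank 67). ALK had 9637.4 and 11702.8 (13.19 and 13.54, rank 463), and IL2RA had 5860.8 and 7471.5 (12.46 and 12.89, rank 857). A second IL2RA probe read 305.1 and 369.3, also detected on both arrays. TNFRSF8 stood apart: its only probe read 200.3 in replicate 1, at a detection p of 0.00922, and 180.1 in replicate 2, at 0.0171, so that it passed on 1 array and is no member. The same probe passed on 1 of the 6 treated arrays. The labels call the cells CD30-positive, so for this gene the array signal and the label differ. Where the probe lies in the transcript was not examined here. NPM1, the abundant nucleolar protein that gives the fusion its first part, had 1 probe at 121.6 and 106.1, detected on none of the 8 arrays. These are levels on 2 arrays of 1 line, with no other line for comparison.

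The promoters promoters of NPM1, ALK and GZMB are shown because the fusion places ALK under the first of them, and because the 3 genes differ in how many CG dinucleotides, the sites of DNA methylation, surround the start. Each runs from 250 bases before to 50 bases after the first start listed by RefSeq (GRCh38.p14), with CG in capitals. NPM1 lies at chr5:171387599-171387898 on the plus strand with 33 CG, ALK at chr2:29921537-29921836 on the minus strand with 28, and GZMB at chr14:24634141-24634440 on the minus strand with 1.
NPM1: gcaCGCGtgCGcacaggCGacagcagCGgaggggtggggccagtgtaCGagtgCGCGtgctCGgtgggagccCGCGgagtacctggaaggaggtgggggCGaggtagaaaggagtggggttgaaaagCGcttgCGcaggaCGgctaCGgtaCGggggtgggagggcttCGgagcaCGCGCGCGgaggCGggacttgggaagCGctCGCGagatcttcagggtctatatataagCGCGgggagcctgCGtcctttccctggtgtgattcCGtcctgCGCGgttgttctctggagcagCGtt
ALK: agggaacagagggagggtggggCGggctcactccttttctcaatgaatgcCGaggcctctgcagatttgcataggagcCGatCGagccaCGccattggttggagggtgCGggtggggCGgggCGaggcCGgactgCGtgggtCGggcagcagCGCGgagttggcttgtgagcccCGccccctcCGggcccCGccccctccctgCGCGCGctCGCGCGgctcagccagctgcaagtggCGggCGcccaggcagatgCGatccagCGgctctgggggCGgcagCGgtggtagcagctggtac
GZMB: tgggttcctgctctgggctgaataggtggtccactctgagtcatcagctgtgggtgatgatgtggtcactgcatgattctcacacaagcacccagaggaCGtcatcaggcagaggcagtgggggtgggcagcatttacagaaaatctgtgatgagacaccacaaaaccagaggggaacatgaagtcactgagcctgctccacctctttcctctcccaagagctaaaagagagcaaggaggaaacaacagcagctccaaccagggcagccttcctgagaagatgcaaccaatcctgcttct

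Such a promoter was listed for 6732 of the 8089 members, or 83.2%, and the median member had 27 CG in it. Promoters with at most 5 CG, as in GZMB, belonged to 5.59% of members, and to 8.55%, 5.69%, 4.45% and 3.82% of the members in 4 equal bins of level from dimmest to brightest. GZMB was thus one of 66 CG-poor genes among 1726 in the brightest bin. The counts are a description, and methylation was not measured.

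Genes linked to ALK lymphoma were mostly detected, with 42 of 56 (75%) on both arrays and a median level of 11.68, against 42.9% of all named genes and a median of 10.03 over all members. The brightest were TIMP1, an inhibitor of metalloproteinases, at 47758.7 and 49112.4, GZMB, and GAS1, a membrane protein that binds hedgehog ligands, at 32572.0 and 25855.0. CCND3 (cyclin D3, which drives entry into S phase) followed at 22529.1 and 33052.7. The transcription factors CEBPB, at 14782.1 and 18960.2, and BATF3, at 11383.9 and 16381.6, and the protease inhibitor SERPINA1, at 16184.4 and 10930.6, ranked between 244 and 335. Also detected were STAT3 (5560.9 and 4384.9), MYC (5743.1 and 5420.9), BATF (3993.9 and 5666.7), IRF4 (5181.9 and 2254.7) and JUNB (4051.1 and 2616.1), transcription factors used by this lymphoma. Beside TNFRSF8, 13 genes of the list passed on neither array: TMOD1, CLU, ICOS, BCL2A1, NPM1, IL17F, TGFB1, IL21, FOXP3, IL1R2, MMP9, PDGFRB and IL17A. Clusterin (CLU), a protein often stained in this lymphoma, read 175.5 and 171.1, and FOXP3, the regulatory T cell factor, 113.0 and 99.2.

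The JAK and STAT pathway was almost complete, with 19 of 20 genes detected, at a median level of 10.15 that was close to that of all members. After STAT3 the brightest were PTPN11 (the phosphatase SHP2) at 5295.5 and 4202.9, TYK2 at 3066.7 and 5468.5 and PTPN1 at 3995.4 and 3971.0, with STAT4 at 3580.1 and 3241.4. Inhibitors of the pathway were detected as well, among them SOCS1 at 3231.9 and 3420.6 and SOCS3 at 1910.1 and 1468.8. JAK3, the kinase that pairs with the common gamma chain, was the exception at 190.7 and 195.5, with a detection p of 0.0132 on each array. Its receptor partner IL2RG read 122.3 and 121.4, while IL2RB, the beta chain of the same receptors, read 11650.9 and 11346.1 (rank 420). Of 17 genes that have been described as silenced or lost in ALK lymphoma, 13 (76.5%) were detected, against 42.9% of all named genes. Their median level was 9.51 and their lowest 7.57, and 9 of them were detected at a detection p under 0.001. IL2RG, CD3E, BCL11B and CD48 were not members. STAT5A, a transcription factor known to be silenced in this lymphoma, read 1291.7 and 902.0, ZAP70 1760.7 and 1298.9, and the phosphatase gene PTPN6 590.8 and 515.2. PTPN6 was named after its values were seen. Of the 3 probes of PTPN6 and the 3 of ZAP70, 1 each was detected.

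Of the T cell receptor list, 2 of 8 genes with a probe were detected. The list holds genes of receptor assembly and rearrangement beside the CD3 and zeta chains. Of those chains, CD3D and CD247 passed and CD3E and CD3G did not. The genes of the receptor chains themselves had no named probe and were not analysed here, which left 8 of the 14 listed genes of the receptor complex, its assembly and its rearrangement. Of these CD3D (5047.2 and 6194.7) and CD247, the zeta chain (2304.4 and 2483.2), were detected on both arrays. CD3E read 109.3 and 109.0 and CD3G 104.2 and 118.0, with 1 probe each, and TRAT1, PTCRA, RAG1 and RAG2 also failed on both. None of these 6 was detected on any treated array. Signalling genes close to the receptor were detected at a share near that of all genes, 16 of 33 (48.5%). SLA, an adaptor that promotes receptor turnover, was the brightest at 8682.0 and 5906.0, before CSK, the kinase that restrains LCK, at 4702.2 and 5139.2, and PRKCQ, a protein kinase C of the T cell synapse, at 4673.0 and 4364.9. LCK itself, the kinase that starts receptor signalling, read 139.3 and 139.8 from the brightest of 4 probes. FYN, LCP2, SOS1 and BCL10 passed on replicate 1 alone, as did 612 of all 661 genes that passed on 1 array. The phosphatase CD45 (PTPRC), which activates LCK in normal leukocytes, read 154.8 and 132.8 with none of its 4 probes detected.

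Among T cell surface proteins 10 of 25 (40.0%) were detected, again close to the share of all genes. CD4, the co-receptor for MHC class II, read 1390.7 and 910.7, and CD8A (105.9 and 123.0) and CD8B (118.6 and 99.5) were not detected with 3 probes each. The pan-T markers CD2 (111.6 and 95.7), CD5 (197.0 and 144.0) and CD7 (109.1 and 119.1) were not detected either, although CD5 was detected on 2 of the 6 treated arrays. CD28, ICOS, CTLA4, TIGIT, LAG3, CD27, CD6, CD48, CD52 and CD69 did not pass. Those that did included the homing receptor CCR7 (3760.5 and 5131.8), the adhesion ligand CD58 (2741.8 and 2057.7), the checkpoint receptor HAVCR2, known as TIM-3 (1904.4 and 1961.9), and CD226 (1481.2 and 1083.0). IL7R, which T cells need for survival, read 786.7 and 876.8.

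T lineage transcription factors were detected in 19 of 34 cases (55.9%), and 15 of these 19 lay above the median level of all members. MYB, a factor of haematopoietic progenitors and T cell growth, was the brightest at 16104.0 and 15646.6, followed by BATF3, TOX2 (6661.8 and 9239.6), RUNX3, a factor of cytotoxic cells (6057.7 and 8453.0), ETS1 (5916.3 and 5929.9) and ID2 (6141.0 and 5243.6). PRDM1 (Blimp-1), a factor of terminal differentiation, read 4529.1 and 3841.0. Of the 4 probes of PRDM1 and the 2 of RUNX3, 1 each was detected on both arrays. The helper subset factors GATA3 and TBX21 did not pass. GATA3 of the Th2 subset read 121.6 and 114.2, and TBX21 of Th1 read 111.7 and 114.5. BCL11B (166.3 and 183.9), LEF1 (143.3 and 160.0), TOX, SATB1, MAF, IKZF2, IKZF3, BACH2, FOXO1, ZBTB7B, ZBTB16 and KLF2 were also not detected on either array.

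**Figure D2:**
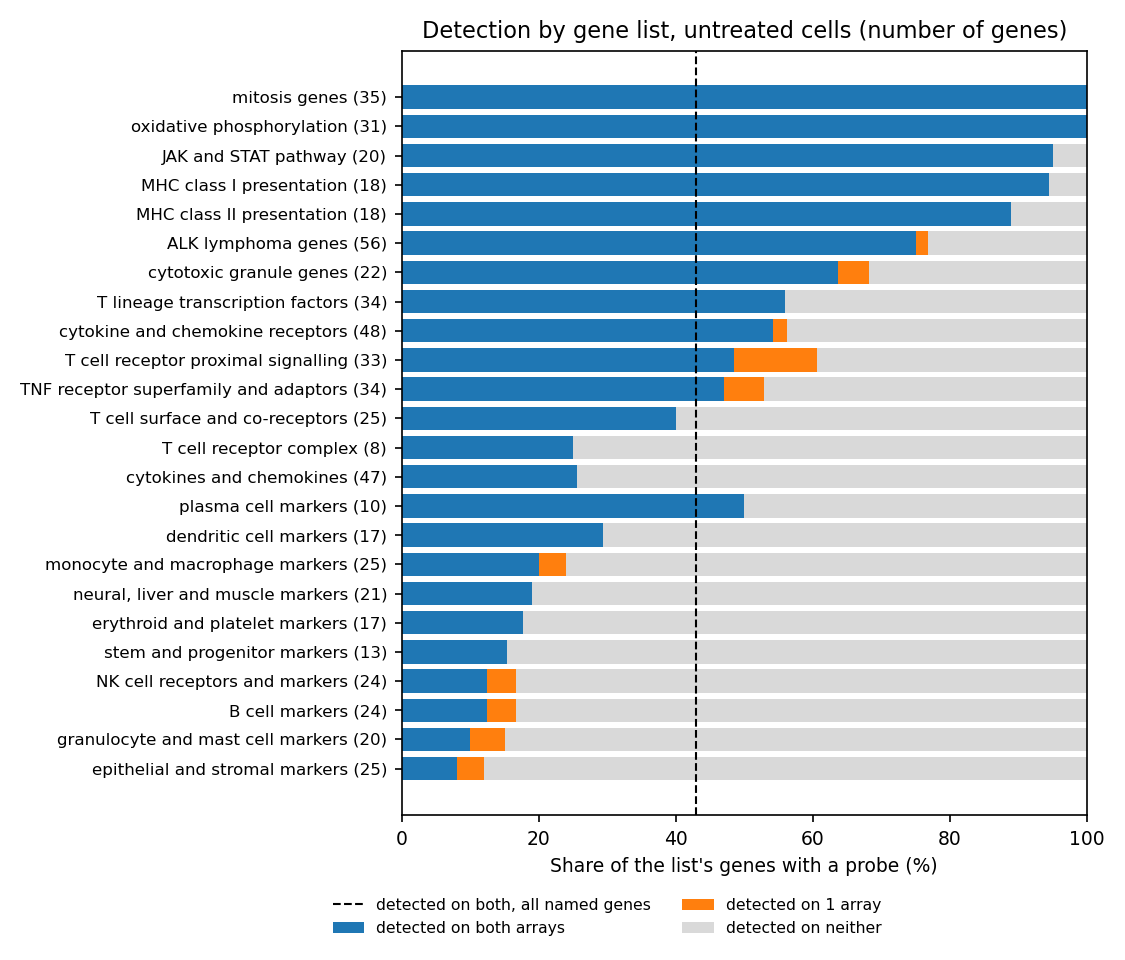
For 24 of the 34 gene lists the bar gives the percent of genes with a probe that were detected on both untreated arrays (blue), on 1 (orange) and on neither (grey), with the number of genes in brackets, and the dashed line marks 42.9%, the share of all named genes detected on both. Mitosis and oxidative phosphorylation genes were all detected on both arrays, and markers of epithelial and stromal cells (2 of 25) and of granulocytes and mast cells (2 of 20) lie at the low end.

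**Figure D3:**
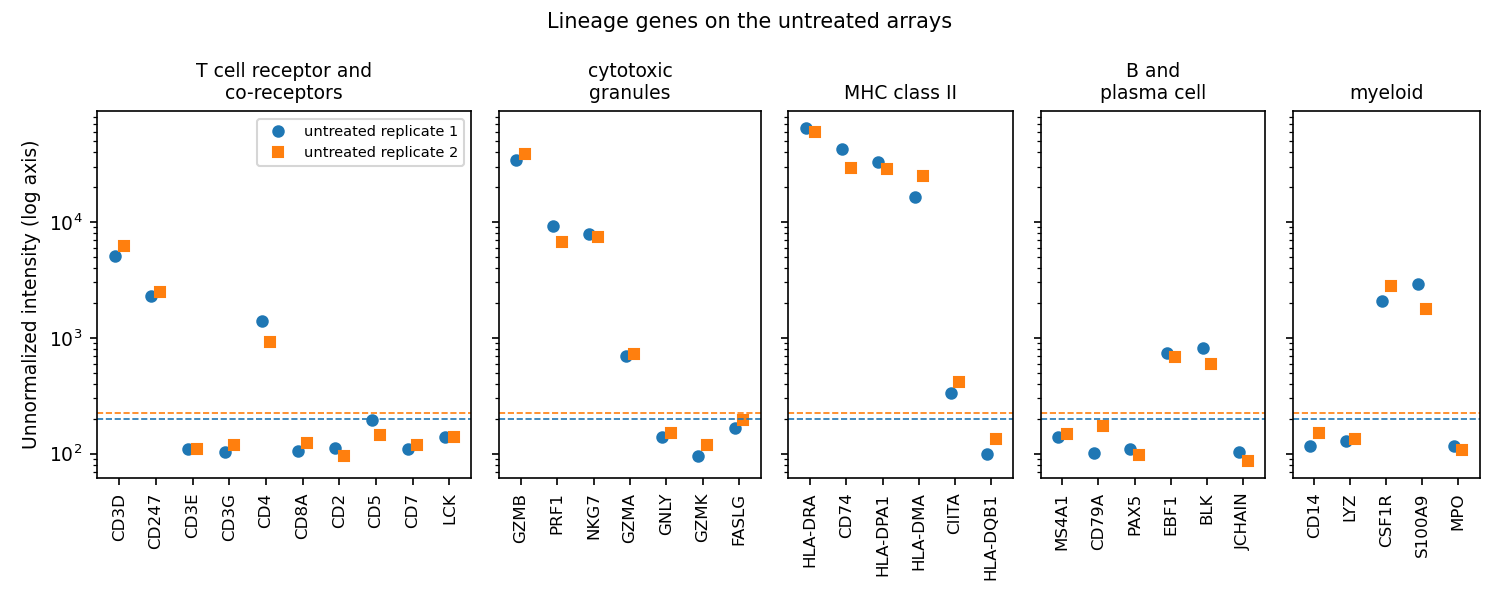
Points give the unnormalized intensity (log axis) of lineage genes on untreated replicate 1 (circles) and 2 (squares), and dashed lines mark the lowest detected intensity of each array, 199.3 and 226.6. GZMB, HLA-DRA and CD3D lie far above the lines, and CD3E, CD2, CD7, CD8A, PAX5 and MPO lie below both.

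The cytotoxic granule programme was detected in 14 of 22 genes (63.6%) at a median level of 12.08, and was uneven. PRF1, the pore-forming perforin, read 9158.3 and 6757.7 (rank 681), NKG7, a granule membrane protein, 7777.2 and 7354.1 (rank 723), and STX11, a syntaxin of granule release, 9557.4 and 6784.9 (rank 659). CTSC, the protease that activates granzymes, stood at 7470.3 and 4895.1, the proteoglycan SRGN that packs them at 5501.5 and 5710.8, and TIA1, a granule-associated RNA-binding protein, at 3547.3 and 3337.9. GZMB was the bright granzyme: GZMA was detected at 702.8 and 724.6, named after its values were seen, and GZMH (151.2 and 160.5), GZMK (95.0 and 118.1) and GZMM (114.1 and 117.2) were not detected. Granulysin (GNLY) at 140.0 and 151.5, Fas ligand (FASLG) at 165.2 and 194.4, CTSW and SERPINB9, the inhibitor of granzyme B, were not detected, and LYST passed on replicate 1 alone. Receptors of natural killer cells were mostly not detected, with 3 of 24 (12.5%) members. These were HCST (DAP10, an adaptor of NKG2D) at 5229.2 and 5018.6, KLRC1 at 1598.7 and 1494.8 from 3 probes that were all detected, and KLRG1 at 242.7 and 259.2. KLRC1 and KLRC2 are near-identical in parts, so signal can be shared between them. NCAM1, FCGR3A, KLRK1, KLRD1, KLRB1, NCR1 and TYROBP were among the 20 that did not pass.

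MHC class II presentation was among the brightest immune groups, with 16 of 18 genes detected (88.9%), a median level of 12.95 and 8 of the 16 in the top 10% of members. HLA-DRA, described above, was joined by CD74, the invariant chain, at 42598.6 and 28858.6, HLA-DPA1 at 32854.8 and 28308.3 and HLA-DRB1 at 23649.2 and 18539.5. HLA-DRB4 read 19183.4 and 16304.7. The DRB genes are so alike that a probe may take signal from several of them, and cell lines carry different sets, so these are uncertain. HLA-DMA and HLA-DMB, which load peptides, read 16364.6 and 25043.6 and 8129.7 and 10849.8, and RFX5, a subunit of the factor that binds class II promoters, 13238.2 and 11312.9. CIITA, the transactivator on which class II transcription depends, was detected but dim, at 332.7 and 417.1 (rank 6905). HLA-DQB1 (100.2 and 133.2) and the protease CTSS (162.7 and 145.7) did not pass. Class I presentation was detected in 17 of 18 genes at a median level of 12.04, with B2M, the light chain, at 25437.2 and 26502.2, the peptide transporter TAP1 at 12855.8 and 19048.5, HLA-B at 17108.0 and 13296.4 and the immunoproteasome subunit PSMB8 at 11824.1 and 11618.1. HLA-B and its relatives also share sequence.

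MHC promoters hold a Y box, the inverted CCAAT element bound by NF-Y, and 3 bright members are shown with its core letters CTGATTGG in capitals, in RefSeq windows built as above (GRCh38.p14). The element begins 49 bases before the start in HLA-DRB1 (chr6:32589799-32590098, minus strand), 82 in HLA-DMA (chr6:32953048-32953347, minus strand) and 52 in B2M (chr15:44711267-44711566, plus strand).
HLA-DRB1: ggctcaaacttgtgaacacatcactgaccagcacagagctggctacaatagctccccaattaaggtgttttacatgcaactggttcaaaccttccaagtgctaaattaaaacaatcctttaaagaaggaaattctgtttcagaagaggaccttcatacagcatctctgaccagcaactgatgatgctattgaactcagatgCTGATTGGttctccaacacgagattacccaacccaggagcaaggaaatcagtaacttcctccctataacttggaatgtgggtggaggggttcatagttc
HLA-DMA: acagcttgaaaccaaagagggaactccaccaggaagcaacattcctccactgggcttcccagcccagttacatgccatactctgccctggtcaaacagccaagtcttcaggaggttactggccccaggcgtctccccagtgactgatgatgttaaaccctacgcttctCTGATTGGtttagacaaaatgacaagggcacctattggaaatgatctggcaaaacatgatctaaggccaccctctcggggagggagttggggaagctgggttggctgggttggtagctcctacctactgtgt
B2M: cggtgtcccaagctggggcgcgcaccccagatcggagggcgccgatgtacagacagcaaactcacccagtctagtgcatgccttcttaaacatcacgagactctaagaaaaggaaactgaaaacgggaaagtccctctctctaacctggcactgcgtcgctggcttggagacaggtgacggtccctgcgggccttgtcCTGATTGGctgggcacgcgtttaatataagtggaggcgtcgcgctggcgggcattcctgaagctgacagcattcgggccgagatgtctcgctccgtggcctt

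Searched on both strands (CTGATTGG or CCAATCAG), the 8 letters were found in 3 of the 12 class II members with a promoter (HLA-DRB1, HLA-DMA and RFX5), in 4 of 15 class I members (HLA-B, HLA-C, HLA-F and B2M), in 380 of 6732 members (5.64%) and in 1136 of all 27305 promoters (4.16%). The match describes letters in these windows and does not show that the factor was bound.

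Cytokine genes were mostly not detected, with 12 of 47 (25.5%) members. MIF, a constitutively made cytokine, read 28861.1 and 22097.4, and IL18, an inducer of interferon gamma, 15161.5 and 15152.7. IL10, an anti-inflammatory cytokine, stood at 4309.3 and 4775.0, IL32 at 4244.9 and 4131.5, and IL26 and IL22, of the same family as IL10, at 2944.4 and 1702.6 and at 884.1 and 920.1. TNF read 1760.3 and 2426.8 and the chemokine CCL5 319.9 and 405.0. The T cell cytokines IL2 (104.6 and 128.8), IFNG (90.9 and 103.3), IL4 (121.3 and 113.9), IL13 (78.6 and 89.8), IL17A (91.1 and 98.4) and IL21 were all below the threshold.

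Receptors for cytokines and chemokines were detected in 26 of 48 cases (54.2%). CCR6, the receptor for CCL20 found on Th17 cells, was the brightest at 49933.1 and 43124.1 (rank 38). That value rests on 1 of 3 probes, and the next brightest read 190.2 and 183.4, not detected. IFNGR1 and IFNGR2, which form the interferon gamma receptor, read 9884.9 and 9479.6 and 4630.2 and 6459.2. IL10RB read 3991.3 and 3755.0 while IL10RA, its partner for IL10, was not detected, and CSF2RA read 3949.9 and 3271.2 while its partner CSF2RB was not. CCR4, CCR8 and CXCR3, chemokine receptors of T cell subsets, were not detected. TNF receptor superfamily members and adaptors were detected at 16 of 34 (47.1%), near the share of all genes, and at a lower median level of 8.80. The death receptor TNFRSF10B was the brightest of them at 2779.3 and 2123.9, followed by TNFRSF1A at 1987.2 and 1822.1 and the ubiquitin ligase BIRC2 at 1989.4 and 1232.9. FAS (112.2 and 137.7), CD40 (94.0 and 102.6), TNFRSF9 (129.0 and 110.8) and TNFSF8, the gene of the CD30 ligand (101.2 and 94.7), did not pass.

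Markers of other lineages were detected at shares from 8.0% to 29.4%, below the 42.9% of all genes, apart from the plasma cell list with 50%, and the markers that passed are named here. Of 24 B cell markers 3 were members, namely EBF1 (732.0 and 676.7), BLK (813.2 and 598.5) and CIITA, and MS4A1, CD79A, CD79B and PAX5 were not detected. The plasma cell list reached 5 of 10 through FKBP11, XBP1, PRDM1, IRF4 and CAV1, which other secretory or activated cells also use, and SDC1, MZB1, JCHAIN and TNFRSF17 were not detected. Of 25 monocyte and macrophage markers 5 were members. The inhibitory receptor LILRB1 read 9080.1 and 10383.4 on 1 of its 2 probes and 111.1 and 110.1 on the other, which was not detected. The list also held the growth factor receptor CSF1R at 2076.8 and 2815.5, S100A9 at 2936.6 and 1765.0, CD68 at 939.9 and 1200.8 and S100A8 at 382.8 and 297.7. CD14 (117.5 and 152.2), CD163, LYZ (130.0 and 134.2), FCN1 and SPI1 were not detected. FSCN1, an actin-bundling protein of dendritic cells, was bright at 13513.0 and 15068.5, one of 5 members among 17 dendritic cell markers beside BATF3, CD83 (637.7 and 543.1), TCF4 (479.2 and 490.1) and ITGAX (272.9 and 232.9). CD1C, CLEC9A and CLEC4C were not detected.

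Erythroid and platelet markers gave 3 of 17 members, with the transferrin receptor TFRC, used by all dividing cells, at 18384.0 and 14615.1, EPOR at 534.3 and 372.7 and GP1BA at 230.8 and 269.4, and HBB, ALAS2, GATA1, ITGA2B and PF4 not detected. Granulocyte and mast cell markers gave 2 of 20, HDC (922.8 and 1345.7) and PRG2 (370.3 and 242.9), and MPO, ELANE, CEACAM8 and TPSAB1 were not detected. Stem and progenitor markers gave 2 of 13, SOX4 (747.3 and 598.3) and ERG (270.2 and 246.9), and CD34 (167.8 and 130.8) and KIT (186.5 and 169.2) did not pass. Vimentin (VIM, 3868.3 and 2480.9) and PDGFRA (390.1 and 310.7) were the members among 25 epithelial and stromal markers, and EPCAM, the keratins, the collagens, DCN and VWF were not detected. Of 21 neural, liver and muscle markers, TUBB3 (7048.7 and 10020.3), MBP (6361.9 and 7016.8), ALB (1225.2 and 1388.2) and SNAP25 (261.4 and 249.1) were members, and GFAP, SYP, APOB and MYH7 were not detected.

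Genes of growth were nearly all detected. Every one of 35 mitosis genes and of 31 oxidative phosphorylation genes was a member, at median levels of 11.69 and 13.29, and 43 of 48 cell cycle genes were members at 12.30. Cyclin D3 was the detected D-type cyclin, since CCND1 (119.7 and 109.5) and CCND2 (149.5 and 119.0) did not pass. The replication helicase subunits MCM7 (17968.3 and 23767.5) and MCM3 (20320.5 and 17251.4), the anaphase activator CDC20 (16318.6 and 22164.4) and thymidylate synthase TYMS (17065.8 and 13667.7) were among the brightest. E2F1, CCNE2 and the inhibitor CDKN1C did not pass. Glycolysis and hypoxia genes were detected in 29 of 33 cases at a median of 11.89, with TPI1 at 35413.7 and 35399.2 and the regulator PFKFB3 at 18040.7 and 17601.4. Cholesterol and fatty acid synthesis gave 20 of 25 at 10.33, led by FASN at 11497.0 and 16785.7, and the stress response to unfolded proteins and amino acid lack 23 of 30 at 11.88, led by ATF4 at 17941.9 and 18668.0.

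Of the BCL2 family and death machinery 13 of 26 (50%) were members, led by the survival protein MCL1 at 6507.6 and 5648.7, the inhibitor BIRC5 (survivin) at 4902.3 and 5633.7 and BCL2L1 (BCL-XL) at 3039.0 and 2010.2. BCL2 was not detected, at 140.1 and 143.1 from the brightest of 4 probes, and neither were BCL2L11, BID, BBC3 and XIAP. NF-kB genes were mostly detected, 22 of 27 (81.5%), but dim, with a median level of 9.06. NFKB1, a DNA-binding subunit, read 8464.5 and 9936.7, the inhibitor NFKBIA 5150.0 and 6209.3, and the coactivator BCL3 4940.6 and 4122.7, while REL passed on replicate 1 alone and ICAM1, BCL2A1, TNFAIP2 and CD40 on neither. Immediate early genes gave 21 of 31 at a median of 9.70, with JUND at 10858.0 and 8206.9 and without EGR1, FOSB, KLF2, KLF4 and NR4A1. Interferon-stimulated genes gave 24 of 30 at 9.88, and the antiviral membrane proteins IFITM2 (19501.6 and 19998.6) and IFITM3 (15148.2 and 11317.0) and the GTPase MX1 (11613.4 and 12378.2) led them. Adhesion and migration genes gave 26 of 37 at 11.59, with ANXA2 at 27320.9 and 27449.5, the tetraspanin CD81 at 18904.3 and 23249.8 and galectin-1 (LGALS1) at 19412.4 and 18963.9, and without CD44, SELPLG and CD9. Together 470 of the 826 list genes with a probe were members.

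The untreated duplicates differed more from each other than the duplicates of any treated group. The difference of replicate 2 minus replicate 1 had an SD of 0.43 over the 8089 members, against 0.22 in the CD153-Fc pair, 0.20 in the T104 pair and 0.22 in the pair given both, each filtered and normalized in the same way. This comparison of 4 pairs was not tested. At least 2-fold higher in replicate 2 were 152 members (1.88%), and at least 2-fold higher in replicate 1 were 63 (0.779%), a balance that turned to 31 and 64 on unnormalized log2 intensities. In the treated pairs 1, 3 and 2 genes differed as much in either direction. Within 0.5 on the log2 scale lay 76.9% of members, against 97.1%, 98.1% and 96.9% of detected genes in those pairs. Across genes the levels of both untreated arrays correlated at a Pearson r of 0.974, where genes are not independent replicates and share both arrays. The spread was not limited to dim genes, with SDs of 0.45, 0.46, 0.44 and 0.36 in 4 equal bins from dimmest to brightest.

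**Figure D4:**
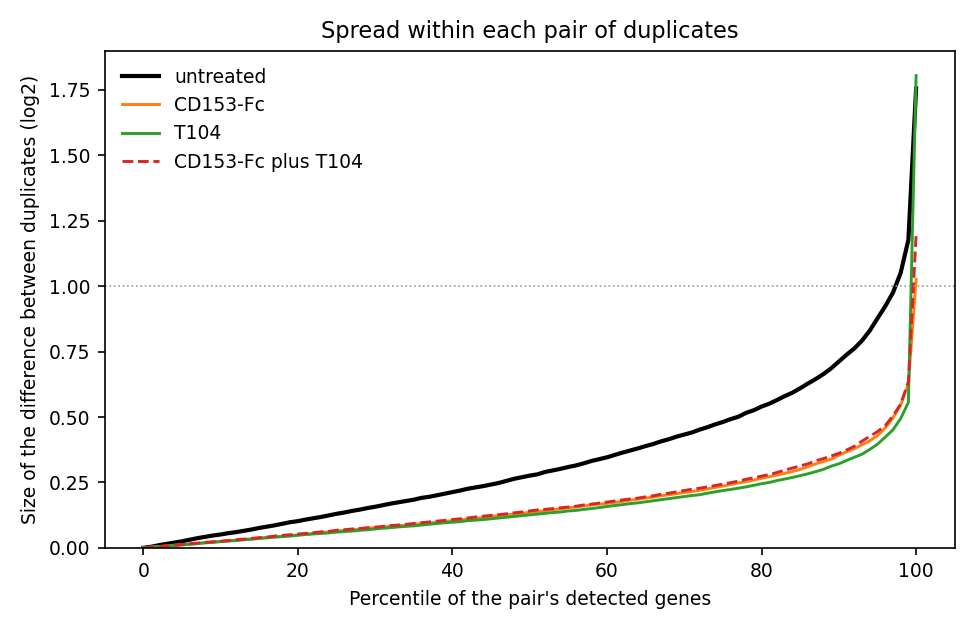
The size of the difference in log2 level between duplicates is drawn against the percentile of the pair's detected genes, for the untreated pair (black) and the 3 treated pairs, and the dotted line marks 2-fold. The untreated curve lies above the others, with an SD of the difference of 0.43 against 0.20 to 0.22.

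The members furthest apart had these values. TMEM79, a transmembrane protein, read 235.0 and 512.0, a difference of 1.76 on the log2 scale, GFOD2 230.6 and 489.5 (1.72), and SLC25A22, a mitochondrial glutamate carrier, 629.3 and 1641.7 (1.69). VEGFA, the angiogenic growth factor induced by hypoxia, read 204.3 and 385.4 (1.59), with 1 of its 3 probes detected on both arrays. In replicate 1, TMEM79, GFOD2 and VEGFA were all close to the limit of detection, with detection p-values of 0.00659, 0.00659 and 0.00922. In the other direction MSANTD3 read 2179.8 and 696.6 (-1.65), INO80E, a subunit of a chromatin remodeller, 2839.9 and 891.8 (-1.64), and AKAP1, a mitochondrial anchor of protein kinase A, 1121.8 and 407.4 (-1.55). The interferon regulatory factors IRF1 and IRF2 lay on opposite sides, IRF1 with levels of 8.81 and 10.15 and IRF2 with 9.24 and 7.87. CDKN1A, which encodes the cell cycle inhibitor p21 and was named after its values were seen, had 7.52 and 8.82, and IRF4 12.27 and 11.14.

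In the 23 lists with at least 10 members, medians of this difference ran from -0.21 to 0.24, beside a median of 0.03 over all members, of which 52.6% were higher in replicate 2. Interferon-stimulated genes had a median of 0.24, with 20 of 24 higher in replicate 2, and ALK lymphoma genes 0.20, with 23 of 42. NF-kB genes had 0.19, stress response genes 0.18 and cytokines 0.16, the last with 10 of 12 higher in replicate 2. Receptor-proximal T cell signalling genes had -0.21, with 4 of 16 higher in replicate 2, and JAK and STAT genes -0.12. On unnormalized log2 intensities these medians kept their signs and shifted downward, to 0.09 for interferon-stimulated genes, 0.05 for ALK lymphoma genes, 0.01 for NF-kB genes, 0.07 for stress response genes, 0.03 for cytokines, -0.31 for receptor-proximal genes and -0.26 for JAK and STAT genes. Some other lists changed sign, among them cytokine and chemokine receptors from 0.10 to -0.03 and T lineage transcription factors from 0.05 to -0.04. With normalization, lists with fewer members reached further, from -0.40 for the 2 epithelial and stromal members to 0.30 for CD3D and CD247 of the receptor complex. No test was made with 1 array on each side.

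**Figure D5:**
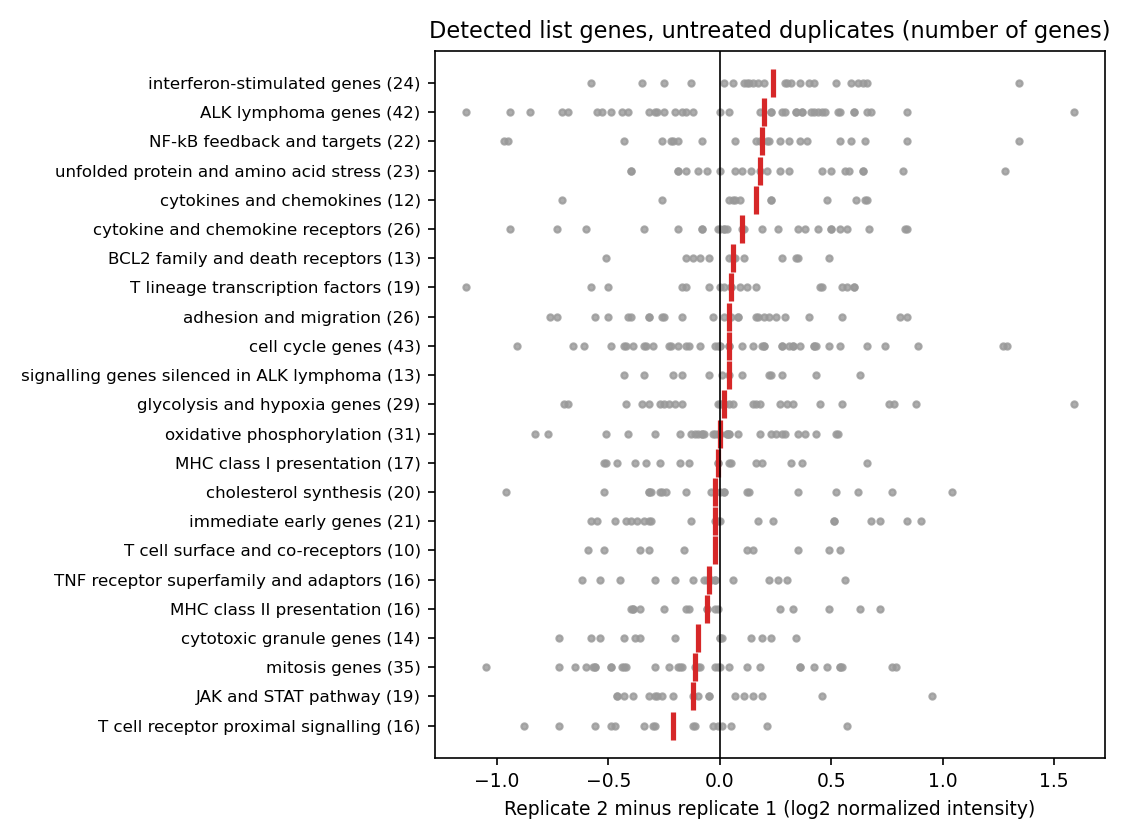
For the 23 gene lists with at least 10 members, grey points give each member's difference in log2 level, untreated replicate 2 minus replicate 1, and red bars the list's median. Interferon-stimulated genes lie highest at 0.24 and T cell receptor proximal signalling genes lowest at -0.21, and the points of every list spread to both sides of 0.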

How the data were processed

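The series holds 8 single-colour Illumina HumanHT-12 v3 arrays of Karpas299 RNA, 2 for each of 4 groups. Groups were taken from the sample titles. The authors deposited probe intensities on a linear scale without normalization, and beside every intensity a detection p-value, which ranks the probe among the array's negative controls. The steps of those p-values correspond to 759 controls. A table of processed intensities was also deposited by the authors. Its medians were equal on both untreated arrays (119.7), its log2 values correlated with the unprocessed ones at r of at least 0.9996, so its scale is linear and it is not centred, and its making was not stated in the labels or headers used here. The submitters' processing notes name GenomeStudio and the series design names BeadStudio.

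Log2 levels were computed from the deposited intensities of the 2 untreated arrays alone with neqc of limma 3.58.1 in R 4.3.3, which takes the background from the detection p-values, adds an offset of 16 and normalizes by quantiles. Counts and summaries were made in Python 3.11.15 with pandas 2.3.3, and the steps were tested on simulated data. Of 48797 probes, 28093 had 1 gene symbol in the platform annotation, 13 had several and 20691 had none, and 28054 matched a RefSeq gene table (GRCh38.p14, used for names). Probes with several symbols or none named no gene. A member needed the same probe at a detection p under 0.01 on both arrays, and its brightest such probe stood for it. For other genes the brightest probe of all was used.

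No contrast between treatments and no test was made, because 1 group is described. The 34 gene lists, 885 genes of which 826 had a probe, and the members were chosen with earlier results of these data known, so the lists are described by counts and medians only. Named genes were the 4 markers, the 30 brightest members, up to 8 of the brightest members of each list, list genes that did not pass on both arrays, the 15 members furthest apart in each direction between the duplicates and 3 genes on each side of the detection threshold, of which the text gives a selection. Genes outside this rule are marked as named after their values were seen. The design calls the duplicates biological, and nothing more is stated of how far they were separate. The number of arrays limits the precision. Alternatives varied the detection threshold, the normalization, the source of the values, the joining of probes and the arrays used. Promoter windows came from a RefSeq table, from which the first start listed for each gene was taken. Promoters of undetected genes were not compared, since 75.2% of those genes had one in the table.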

Additional observations from a re-analysis of the deposited data

How the results depend on the processing

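The count of 8089 genes detected on both untreated arrays became 9689 at a detection p under 0.05, 5864 at 0.001 and 6152 where every probe of a gene had to pass, and leaving out either array gave 8138 to 8702. Genes detected on 1 array numbered 1024 at 0.05 and 912 at 0.001, against 661. The median level of 10.03 moved to 9.51 at 0.05 and 10.79 at 0.001, since dimmer or brighter genes are then counted, and lay between 9.80 and 10.15 under the other settings, with 9.81 to 10.04 from single arrays. The SD between the duplicates stayed between 0.38 and 0.44. The 215 genes at least 2-fold apart became 95 on unnormalized log2 intensities, 102 on the authors' processed intensities and 128 at a detection p under 0.001, and lay between 193 and 284 otherwise. Replicate 2 was the higher array for 152 genes and replicate 1 for 63. These numbers were 31 and 64 on unnormalized log2 intensities, where neither background nor scale was adjusted, 115 and 82 with arrays scaled to equal medians, and 73 and 29 on the authors' processed intensities. The cause was not tested. Of 2319 percentiles of the 261 named genes under the alternatives, 2134 lay within 10 points of those reported and 185 did not. Counts of several lists rested on dim genes: at a detection p under 0.001 the NF-kB list had 13 members in place of 22, the TNF receptor list 7 in place of 16 cytokines 7 in place of 12, dendritic cell markers 3 in place of 5, erythroid and platelet markers 1 in place of 3, and granulocyte and mast cell, stem and progenitor, and epithelial and stromal markers 1 in place of 2 each. At 0.05 natural killer receptors had 6 in place of 3, B cell markers 5 in place of 3, granulocyte and mast cell markers 5 in place of 2 and epithelial and stromal markers 4 in place of 2. TNFRSF8 was detected on both arrays at 0.05. No paired analysis was possible because 1 group was described and no contrast was made.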

Other observations

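Probes of the same gene lay in some cases far apart. The brightest probe lay at least 64-fold above the next one in 8 of the 23 genes with several probes among the 30 brightest (34.8%), in 17 of 66 among the 100 brightest (25.8%) and in 173 of 3155 members with several probes (5.50%), where the choice of the brightest probe sets the direction and dim genes have less room for such a gap. The median gap to the next probe was 1.83 on the log2 scale among the 30 brightest, 1.32 among the 100 brightest and 1.97 over all members, and the next probe was not detected in 3 of 23, 7 of 66 and 1361 of 3155 genes. The examples here were chosen after their values were seen. TMSB4X read 63784.5 and 66464.1 on one probe and 131.5 and 111.6 on the other. SNRPD2 read 54801.4 and 63236.2 on one and 123.2 and 191.5 on the other, and LILRB3, an inhibitory receptor of myeloid cells, 28997.2 and 33385.4 on one and 104.7 and 92.8 on the other. For the kinase ROCK2 the pair was 47109.3 and 45302.0 against 673.8 and 350.1, and for the mismatch repair protein MSH3 42763.5 and 43896.1 against 701.6 and 609.6, with both probes of each detected. LAIR1 and F2R, 2 of the 30 brightest, had second probes at 296.5 and 336.9 and at 480.6 and 319.6. The sequences of the probes were not used here.

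Some genes with several probes passed on none of them. PTPRC and LCK with 4 probes each, CD44 with 3 and BCL2 with 4 were detected on none of the 8 arrays.

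Outside the named genes, 1511 of the 20691 probes without a symbol were detected on both untreated arrays.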
